A study of Mus musculus with 10 samples.

Results

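Prostaglandins and leukotrienes are lipid signals made from arachidonic acid, and macrophages are a known source of both. The 10 genes described here cover the main steps. Ptgs1 and Ptgs2 encode the cyclooxygenases, and Ptges and Ptgis encode synthases acting after them. Ptger2 and Ptger4 encode prostaglandin E2 receptors. Alox5, Alox5ap, Alox15 and Ltc4s encode the lipoxygenase and leukotriene side. They were chosen by name, as 10 of 54532 genes of the table, but with earlier results of these data known. The shares of all tested genes given below are therefore a background and not a test of the 10 as a set. All 10 passed the filter for testing, which needed a mean level of 10 normalized counts or more (11506 genes passed).

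Primary macrophages of the mouse peritoneal cavity, where they act as resident phagocytes, were profiled by RNA sequencing to ask how deletion of Trem1 affects gene expression with age. There were 3 libraries labelled aged Trem1-/- (replicates 1, 2 and 3), 3 from aged wild type (replicates 3, 4 and 6) and 4 from young wild type (A, B, C and E). The labels name no treatment, strain, age in months, sex or purification step, and do not say which part of Trem1 is deleted or whether each library came from a separate mouse. The p-values below therefore measure the spread between these libraries, which may be technical.

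Cyclooxygenases turn arachidonic acid into prostaglandin H2, from which separate synthases make prostaglandin E2, prostacyclin and thromboxane. Alox5, helped by the membrane protein Alox5ap, makes leukotriene A4, to which Ltc4s adds glutathione to give leukotriene C4. Alox15 encodes the 12/15-lipoxygenase, which resident peritoneal macrophages of mice are known to express strongly.

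Each library held 2663744 to 5603498 reads, so that 3 reads stood for 1.85 to 3.84 normalized counts. Trem1 was read in every library, with 23.5, 106 and 13.8 normalized counts in the libraries labelled aged Trem1-/-, 64, 15.3 and 27 in aged wild type, and 14.8, 8, 12 and 24.4 in young wild type. The groups overlapped, and a gene-level count says nothing about single exons, so that group is called by its label. Macrophage markers were abundant in all libraries (Adgre1, 1847 to 4969 normalized counts), but the aged wild-type libraries stood apart from the rest. The 20 markers of large peritoneal macrophages summed to 246927 to 313487 normalized counts in the libraries labelled aged Trem1-/-, 83693 to 134580 in aged wild type and 304201 to 364588 in young wild type. Fn1 alone made up most of each sum, as with 163510 of 273855 in replicate 1 labelled aged Trem1-/-. The 15 B cell markers summed to 3615 to 7542 normalized counts in the libraries labelled aged Trem1-/-, 8705 to 13970 in aged wild type and 1568 to 3521 in young wild type. The share of mitochondrial transcripts was 1.26% to 2.39% in the libraries labelled aged Trem1-/-, 3.17% to 5.26% in aged wild type and 1.19% to 2.13% in young wild type. The noncoding RNA Gm26917 took 4.999% to 5.68% of reads in the libraries labelled aged Trem1-/-, 8.38% to 12.9% in aged wild type and 5.06% to 5.70% in young wild type. Replicate 4 of aged wild type also stood apart within its group, with 23701 normalized counts over 6 erythroid markers, against 529.9 and 473 in replicates 3 and 6. Those markers summed to 17.2 to 57.7 normalized counts in the libraries labelled aged Trem1-/- and 9.30 to 751 in young wild type. In such bulk samples, fewer cells of a type and less RNA per cell cannot be told apart.

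Alox15 was by far the most abundant of the 10 genes. Per kilobase of exon it stood at 4871 ± 446 normalized counts in the libraries labelled aged Trem1-/- (SD, n = 3), at 2176 ± 647 for aged wild type (n = 3) and at 5357 ± 201 for young wild type (n = 4), and only 18 of all tested genes had a higher mean normalized count. Alox5ap came next in all 3 groups, at 474 ± 33.7, 199 ± 44.5 and 504 ± 32.8 normalized counts per kilobase in the same order of groups. Ptgis was the third in the libraries labelled aged Trem1-/- (285 ± 55.4 normalized counts per kilobase), the sixth in aged wild type (115 ± 31.9) and the third in young wild type (476 ± 58.7). In aged wild type its neighbours in that order, Alox5, Ltc4s and Ptgs1, lay between 118 and 130 normalized counts per kilobase, closer together than their SDs of 53.4 to 67.3. The 4 remaining genes were much lower, from Ptger4 (43.5 ± 18.8, 27.1 ± 2.57 and 41.9 ± 11.9 per kilobase) through Ptges and Ptgs2 down to Ptger2 (2.67 ± 0.80, 2.05 ± 1.15 and 2.24 ± 0.31).

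**Figure D1:**
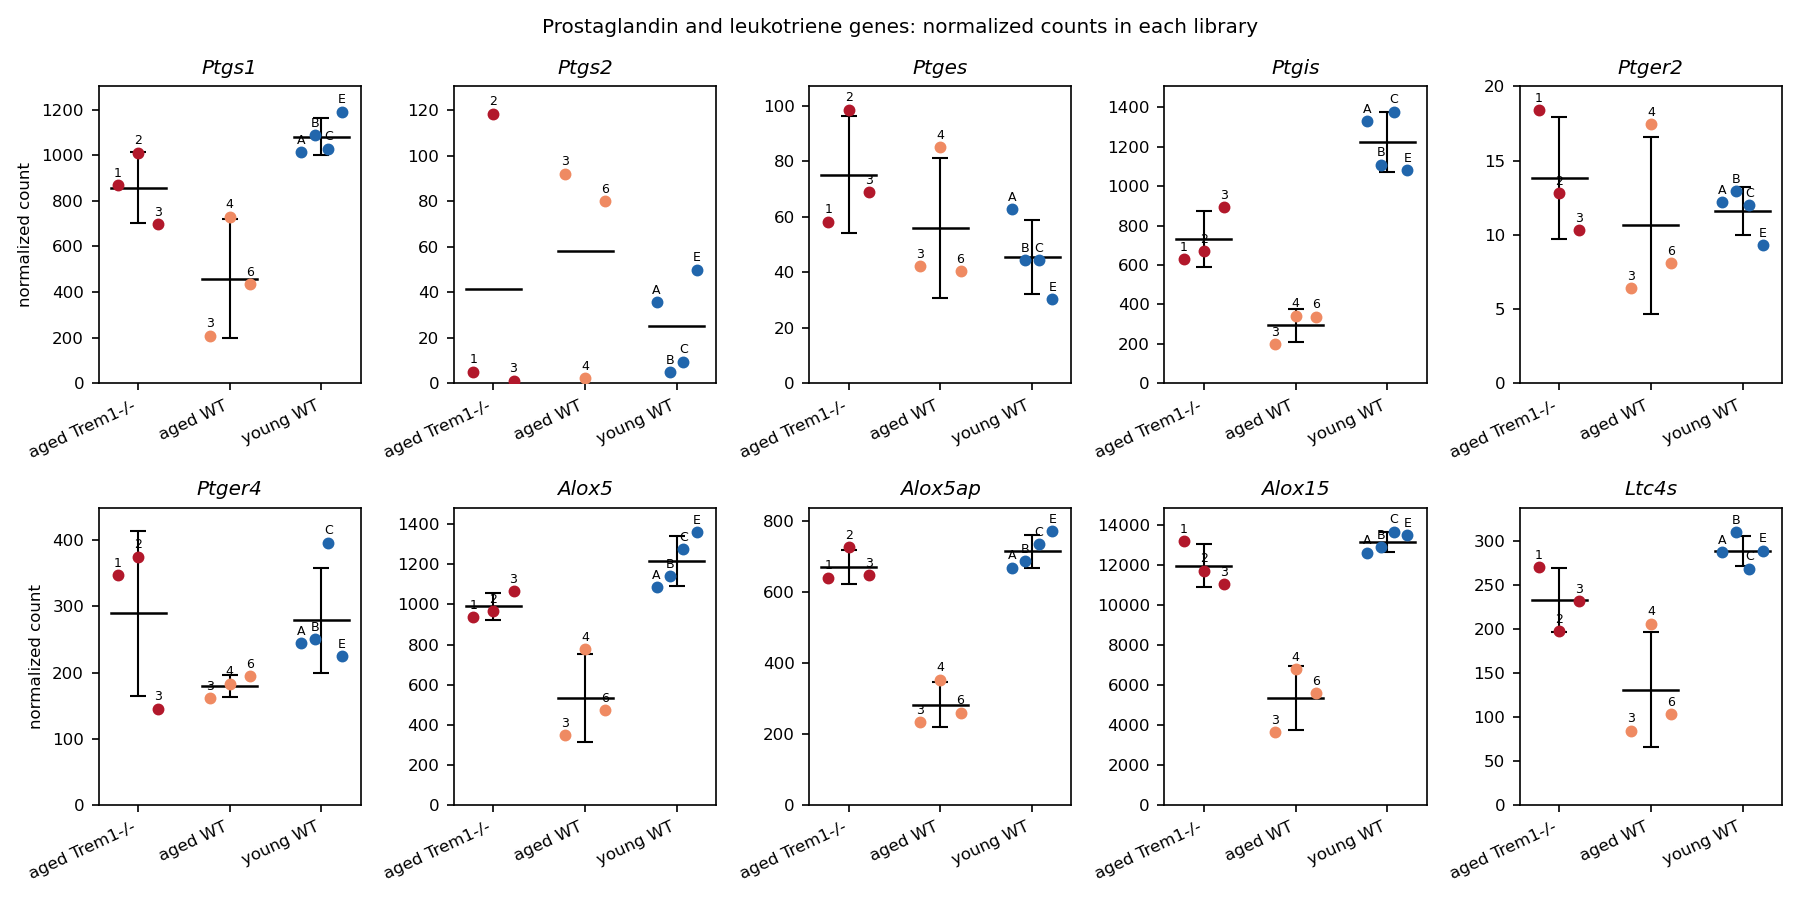
Normalized counts (vertical axes, linear, each starting at 0) of the 10 genes in each library, with aged Trem1-/- (n = 3), aged wild type (n = 3) and young wild type (n = 4) from left to right. Points are libraries with their replicate names, long lines are group means, and bars are the SD (not drawn for Ptgs2, whose libraries spread from 1.15 to 119); Ptgis, Alox5ap and Alox15 are low in all 3 aged wild-type libraries.

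Aged wild type was compared with young wild type to ask what changes with age. The prostaglandin and leukotriene enzymes that were abundant in young wild type fell together in aged wild type: 6 of the 10 genes (Ptgis, Ptgs1, Alox5ap, Alox15, Alox5 and Ltc4s) passed the test downwards and 0 upwards. The test was limma on log2(normalized count + 1), and a gene is called at an adjusted p under 0.05. Of all tested genes, 19% were lower and 14.3% higher by the same rule. The median log2 fold change of the 10 genes was -1.25, against -0.02 over all tested genes. The 6 called genes stood at 0.240 to 0.454 times their young wild-type means. No library of aged wild type overlapped young wild type for 7 of the 10, the 6 called and Ptger4, where 21.9% of all tested genes were lower and 18.4% higher in this way.

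The libraries labelled aged Trem1-/- were compared with aged wild type to ask how the labelled genotype differs at that age. The same 6 genes were higher in the libraries labelled aged Trem1-/- and 0 were lower, with 11.5% of all tested genes higher and 6.82% lower. Their means stood at 1.78 to 2.49 times those of aged wild type. The median log2 fold change of the 10 genes was 0.95, against 0.02 over all tested genes. For 4 of them (Ptgis, Alox5, Alox5ap and Alox15) the libraries of the groups did not overlap, as for 19.4% of all tested genes in this direction and 15.5% in the other. Both comparisons use the same 3 aged wild-type libraries, so a low value there enters both with opposite signs.

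The libraries labelled aged Trem1-/- were also set against young wild type, where both the age and the genotype differ. With limma, 0 of the 10 genes were called, and 2 had an unadjusted p under 0.05 (Ptgis and Ptges); of all tested genes, 0.591% were higher and 0.33% lower. The 6 genes above stood at 0.598 to 0.939 times their young wild-type means. For 3 of them (Ptgis, Ptgs1 and Alox5) every library labelled aged Trem1-/- was below every young wild-type library, as for 7.72% of all tested genes, and 0 of the 10 genes lay above it in this way, as 8.05% of all tested genes did. The spread behind these p-values was pooled over all 3 groups. It included aged wild type, where the SD of the 6 genes was 22.4% to 57.0% of the mean. In a limma fit of only the 2 groups compared, Ptgis was called lower (adjusted p = 0.0255). A p that misses the threshold does not show that these groups were alike.

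**Figure D2:**
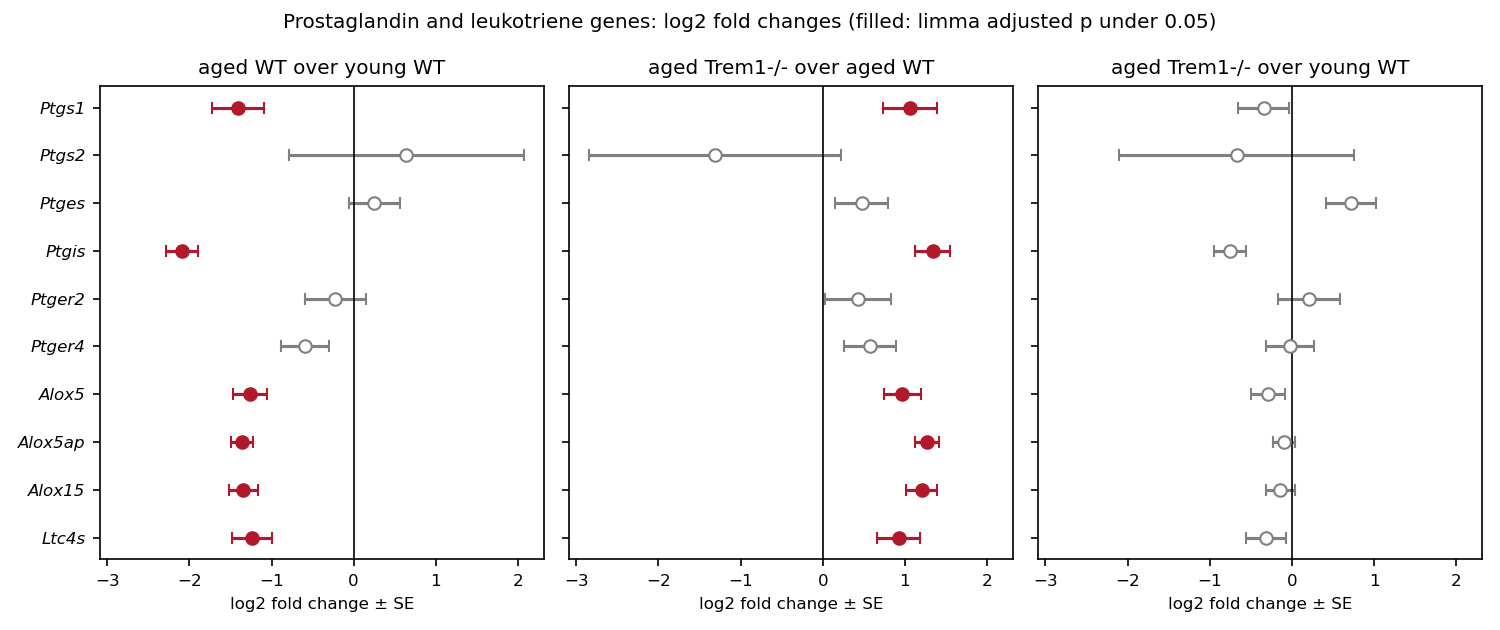
Log2 fold changes (horizontal axis) of the 10 genes with their SE as bars, for aged against young wild type (left), aged Trem1-/- against aged wild type (middle) and aged Trem1-/- against young wild type (right); filled points passed limma at an adjusted p under 0.05. The 6 filled genes are between -2.09 and -1.24 for age and between 0.92 and 1.34 for the labelled genotype, and no point is filled for aged Trem1-/- against young wild type.

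Of the cyclooxygenases, Ptgs1 was the abundant one. Ptgs1, known as the constitutive form (ENSMUSG00000047250.13, GRCm38 chr2:36230426-36252272, plus strand), had 868, 1010.3 and 696 normalized counts in the libraries labelled aged Trem1-/-, 209.9, 731 and 434 in aged wild type, and 1012, 1088, 1028 and 1191 in young wild type. All 3 aged wild-type libraries were below all 4 of young wild type, while replicate 4 of aged wild type was above the lowest library labelled aged Trem1-/-. In aged against young wild type, Ptgs1 fell by 1.41 ± 0.31 on the log2 scale (limma, SE, adjusted p = 0.00513). It was higher in the libraries labelled aged Trem1-/- than in aged wild type by a log2 fold change of 1.06 ± 0.33 (adjusted p = 0.0457). That second call held in 1 of 10 fits that each left out a library, the one without aged wild-type replicate 4, the library with the high erythroid markers, and the largest adjusted p was 0.134.

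Ptgs2, known as the form induced by inflammatory stimuli (ENSMUSG00000032487.8, GRCm38 chr1:150100031-150108227, plus strand), followed no group. It had 5.11, 119 and 1.15 normalized counts in the libraries labelled aged Trem1-/-, 92.2, 2.18 and 79.96 in aged wild type, and 35.7, 4.93, 9.61 and 49.97 in young wild type. Each group thus held libraries with high and with very low Ptgs2, and 1 library of aged wild type and 1 labelled aged Trem1-/- were under the level of 3 reads. The log2 fold change was -1.31 ± 1.53 for the libraries labelled aged Trem1-/- against aged wild type (limma adjusted p = 0.583) and 0.64 ± 1.43 for aged against young wild type (adjusted p = 0.763). The library with the most Ptgs2, replicate 2 labelled aged Trem1-/-, also had the most Trem1 (106 normalized counts). Within every group, Trem1 ordered the libraries as Ptgs2 did. From high to low, the order was replicates 2, 1 and 3 labelled aged Trem1-/- (Trem1 at 106, 23.5 and 13.8 normalized counts). In aged wild type it was replicates 3, 6 and 4 (64, 27 and 15.3), and in young wild type E, A, C and B (24.4, 14.8, 12 and 8). A link between these 2 genes was not tested. The 12 mast cell markers summed to 424, 2014 and 437 normalized counts in the libraries labelled aged Trem1-/-, 1224, 981 and 2321 in aged wild type, and 451, 453, 1459 and 243 in young wild type. The 14 mesothelial and fibroblast markers summed to 22.5, 528 and 125 normalized counts in the libraries labelled aged Trem1-/-, 742, 687 and 674 in aged wild type, and 27.0, 12.3, 532 and 32.5 in young wild type. In aged wild-type replicate 4, however, Krt8 and Krt18 made up 649 of that sum. They also made up 119 of 125 in replicate 3 labelled aged Trem1-/- and 337 of 742 in aged wild-type replicate 3. Without these 2 keratins, a split chosen after the values were seen, the other 12 markers summed to 14.3, 450.3 and 5.74 normalized counts in the libraries labelled aged Trem1-/-, 406, 38.2 and 557 in aged wild type, and 12.2, 6.77, 484 and 22.1 in young wild type. The mast cell markers and these 12 were thus highest in replicate 2 among the libraries labelled aged Trem1-/- and lowest in replicate 4 of aged wild type, as Ptgs2 was. With all 14 mesothelial and fibroblast markers, replicate 6 of aged wild type was lowest (674 normalized counts). In that group the likeness of those markers to Ptgs2 therefore rests on the split. The split also turned the order of replicates 1 and 3 labelled aged Trem1-/- (22.5 and 125 with all 14 markers, 14.3 and 5.74 without the keratins). In young wild type the mast cell markers and the mesothelial and fibroblast markers, with or without the keratins, were highest in replicate C, where Ptgs2 was low. The part of these cells in the level of Ptgs2 was not tested.

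**Figure D3:**
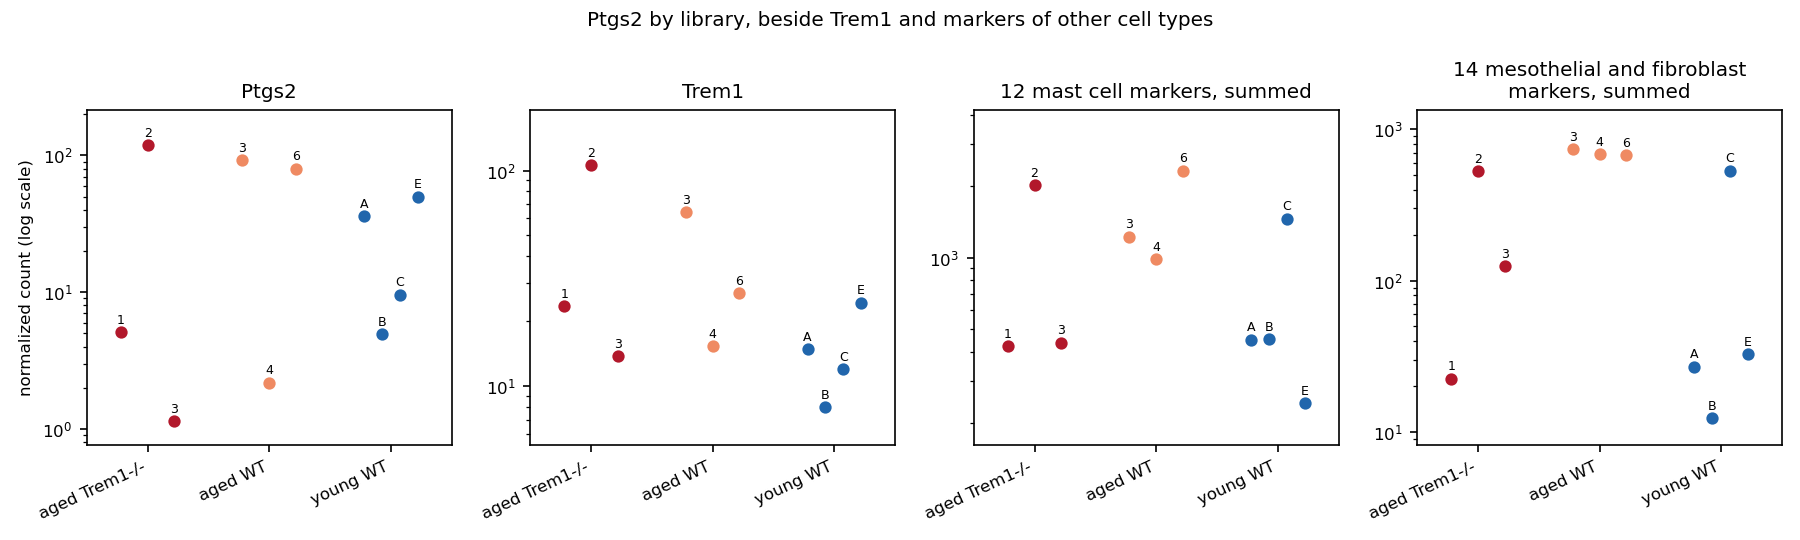
Normalized counts (vertical axes, log scale) of Ptgs2, of Trem1, and of 12 mast cell and 14 mesothelial and fibroblast markers in sum, in each library, with aged Trem1-/-, aged wild type and young wild type from left to right; points are libraries with their replicate names. Ptgs2 runs from 1.15 to 119 among the libraries labelled aged Trem1-/- and from 2.18 to 92.2 in aged wild type. The mesothelial and fibroblast sums of aged wild-type replicate 4 and of replicate 3 labelled aged Trem1-/- are mostly Krt8 and Krt18.

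The windows of 250 bases before the start of Ptgs1 and Ptgs2 are shown because these 2 isoenzyme genes behaved so differently across the libraries (RefSeq, GRCm38.p6, both on the plus strand, chr2:36230176-36230425 and chr1:150099781-150100030). Capitals mark matches, on either strand, to any of 7 motifs searched, the GATA factor motif with letters AGATAA, the AP-1 motif with letters TGANTCA, the CRE with letters TGACGT, the C/EBP motif with letters TTGCNNAA, the E-box with letters CACGTG, the TATA box with letters TATAAA and the GC-box with letters GGGCGG.
Ptgs1: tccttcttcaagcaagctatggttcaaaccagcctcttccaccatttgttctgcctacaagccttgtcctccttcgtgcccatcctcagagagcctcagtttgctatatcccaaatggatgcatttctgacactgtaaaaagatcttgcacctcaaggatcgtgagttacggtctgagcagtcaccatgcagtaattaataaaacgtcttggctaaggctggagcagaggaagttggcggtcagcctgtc
Ptgs2: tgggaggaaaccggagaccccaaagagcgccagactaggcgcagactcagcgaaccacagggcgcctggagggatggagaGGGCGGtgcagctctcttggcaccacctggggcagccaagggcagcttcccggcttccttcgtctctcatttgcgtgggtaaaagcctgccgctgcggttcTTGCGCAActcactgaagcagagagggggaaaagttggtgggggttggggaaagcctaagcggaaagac
The Ptgs1 window held no match and was 48% G or C. The Ptgs2 window was 61.6% G or C and held a C/EBP match from 69 to 62 bases before the start and a GC-box from 170 to 165 bases before it. Such matches are common: of 32851 windows of this length, 9.56% held the C/EBP letters and 32.7% the GC-box, against 9.99% for GATA, 6.75% for AP-1, 6.47% for CRE, 6.02% for the E-box and 12.4% for TATA. A match is only a run of letters, and the absence of one says nothing about a factor.

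Ptgis, the prostacyclin synthase, moved most of the 10 (ENSMUSG00000017969.13, GRCm38 chr2:167191805-167240604, minus strand). It had 629, 669.8 and 894 normalized counts in the libraries labelled aged Trem1-/-, 199.7, 344 and 339 in aged wild type, and 1327, 1108, 1376 and 1079.7 in young wild type. The 3 groups formed separate ranges, with aged wild type lowest and young wild type highest. Ptgis fell by 2.09 ± 0.19 on the log2 scale in aged against young wild type (limma adjusted p = 0.000126) and was higher in the libraries labelled aged Trem1-/- than in aged wild type by 1.34 ± 0.21 (adjusted p = 0.00283). Against young wild type, the libraries labelled aged Trem1-/- had a log2 fold change of -0.75 ± 0.19, which missed the threshold (adjusted p = 0.0942). That difference was called in 4 of the alternative settings, with adjusted p from 0.0096 to 0.241 over all of them.

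Ptges, the inducible prostaglandin E synthase (ENSMUSG00000050737.13, GRCm38 chr2:30889471-30929863, minus strand), did not move with Ptgis or Ptgs1. It had 58.2, 98.5 and 68.8 normalized counts in the libraries labelled aged Trem1-/-, 42.2, 85.1 and 40.4 in aged wild type, and 62.8, 44.3, 44.4 and 30.2 in young wild type. All 3 groups overlapped. Its log2 fold change was 0.47 ± 0.33 for the libraries labelled aged Trem1-/- against aged wild type (limma adjusted p = 0.332), 0.25 ± 0.30 for aged against young wild type (adjusted p = 0.558) and 0.73 ± 0.30 for the libraries labelled aged Trem1-/- against young wild type (adjusted p = 0.299).

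Neither prostaglandin E2 receptor was called in the fit of all 10 libraries. Ptger4 (ENSMUSG00000039942.15, GRCm38 chr15:5206661-5244187, minus strand) encodes the EP4 receptor, which raises cyclic AMP. It had 347, 375 and 146 normalized counts in the libraries labelled aged Trem1-/-, 161, 183 and 195 in aged wild type, and 244, 250, 396 and 224 in young wild type. Aged wild type lay below every young wild-type library, with a log2 fold change of -0.60 ± 0.29 (limma adjusted p = 0.143). That difference was called in a fit of only those 2 groups (adjusted p = 0.0396) and in the fit without replicate 3 labelled aged Trem1-/- (adjusted p = 0.0294). Replicate 3 labelled aged Trem1-/- was lower than any other library, and without it Ptger4 was also called higher in the remaining 2 than in aged wild type (log2 fold change 1.01, adjusted p = 0.0161, against 0.57 ± 0.32 and 0.224 with it). Exons of Ptger4 share 16.5% of their length with genes on the other strand, among them Ttc33, at 73.2, 90.6 and 71.2 normalized counts on average in the libraries labelled aged Trem1-/-, aged wild type and young wild type.

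Ptger2, which encodes the EP2 receptor of the same signalling type (ENSMUSG00000037759.6, GRCm38 chr14:44988195-45003820, plus strand), was close to the filter. Its levels were 18.4, 12.8 and 10.3 normalized counts in the libraries labelled aged Trem1-/-, 6.4, 17.5 and 8.09 in aged wild type, and 12.2, 12.9, 12 and 9.3 in young wild type. The groups overlapped, with log2 fold changes of 0.43 ± 0.40 for the libraries labelled aged Trem1-/- against aged wild type and -0.22 ± 0.38 for aged against young wild type (limma adjusted p = 0.486 and 0.687). The window of 250 bases before the start of Ptger4 held 4 GC-box matches.

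Alox15 (ENSMUSG00000018924.6, GRCm38 chr11:70344152-70352031, minus strand) had 13155, 11692 and 11016 normalized counts in the libraries labelled aged Trem1-/-, 3648, 6794 and 5581 in aged wild type, and 12588, 12886, 13644 and 13468 in young wild type. The aged wild-type range lay apart from both others, and those overlapped. Alox15 fell by 1.35 ± 0.18 on the log2 scale in aged against young wild type (limma adjusted p = 0.00039) and was higher by 1.205 ± 0.19 in the libraries labelled aged Trem1-/- than in aged wild type (adjusted p = 0.00303).

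The 3 genes of leukotriene C4 synthesis followed the same order of groups. Alox5ap (ENSMUSG00000060063.9, GRCm38 chr5:149264767-149288153, plus strand), the partner that presents arachidonic acid to the 5-lipoxygenase, had 642, 727 and 648 normalized counts in the libraries labelled aged Trem1-/-, 233, 354 and 261 in aged wild type, and 669, 687, 736 and 772 in young wild type. It had the smallest errors of the set, with log2 fold changes of 1.27 ± 0.14 for the libraries labelled aged Trem1-/- against aged wild type (limma adjusted p = 0.00121) and -1.36 ± 0.13 for aged against young wild type (adjusted p = 0.000126). Alox5, the 5-lipoxygenase itself (ENSMUSG00000025701.12, GRCm38 chr6:116410077-116461178, minus strand), had 937, 967 and 1068 normalized counts in the libraries labelled aged Trem1-/-, 349, 776 and 474 in aged wild type, and 1087, 1142, 1277 and 1361 in young wild type. No 2 of the 3 groups overlapped for Alox5. Its log2 fold change was 0.97 ± 0.22 for the libraries labelled aged Trem1-/- against aged wild type (limma adjusted p = 0.0140) and -1.26 ± 0.21 for aged against young wild type (adjusted p = 0.0011). The first of these missed the threshold in a fit of only those 2 groups (adjusted p = 0.0527).

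Ltc4s, the leukotriene C4 synthase (ENSMUSG00000020377.15, GRCm38 chr11:50236461-50238616, minus strand), had 271, 198 and 232 normalized counts in the libraries labelled aged Trem1-/-, 84.5, 206 and 103 in aged wild type, and 288, 310.3, 269 and 289 in young wild type. Replicate 4 of aged wild type reached the level of the libraries labelled aged Trem1-/-, and replicates 3 and 6 were far below. Ltc4s fell by 1.24 ± 0.24 on the log2 scale in aged against young wild type (limma adjusted p = 0.00267) and was higher by 0.92 ± 0.26 in the libraries labelled aged Trem1-/- than in aged wild type (adjusted p = 0.0305). The second call held in 6 of 10 fits that each left out a library; it was lost, with adjusted p up to 0.108, without replicate 1 or 3 labelled aged Trem1-/- and without replicate 3 or 6 of aged wild type. Exons of Ltc4s share 26.4% of their length with Gm26542 on the other strand, which averaged 9.57, 16.9 and 8.27 normalized counts in the libraries labelled aged Trem1-/-, aged wild type and young wild type. The same share was 13.3% for Alox5ap with Gm19719 (43.2, 16.5 and 62.5 normalized counts) and 0 for Ptgs2, Ptges, Alox5 and Alox15.

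The windows before the RefSeq starts of Alox5 and Ltc4s, whose products act in sequence, are shown with the same motifs in capitals (RefSeq, GRCm38.p6, both on the minus strand, chr6:116461179-116461428 and chr11:50238533-50238782).
Alox5: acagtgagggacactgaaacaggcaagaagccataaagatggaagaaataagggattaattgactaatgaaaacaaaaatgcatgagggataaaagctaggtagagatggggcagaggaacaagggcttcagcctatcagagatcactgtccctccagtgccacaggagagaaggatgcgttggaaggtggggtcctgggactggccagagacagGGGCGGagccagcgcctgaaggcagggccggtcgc
Ltc4s: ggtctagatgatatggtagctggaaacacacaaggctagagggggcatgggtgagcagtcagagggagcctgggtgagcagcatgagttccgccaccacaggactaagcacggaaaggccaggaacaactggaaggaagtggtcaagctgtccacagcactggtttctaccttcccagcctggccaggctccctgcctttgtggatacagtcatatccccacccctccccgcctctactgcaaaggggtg
Alox5 held a GC-box match from 35 to 30 bases before the start, and Ltc4s held none of the 7 motifs. The RefSeq start of Ltc4s matches an annotated transcript inside the gene as located above, so that 84 bases of its window lie within those bounds. Windows were matched for 7 of the 10 genes; Ptgis, Alox5ap and Alox15 had no entry.

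Within aged wild type, the 6 called genes did not fall evenly. Their SD was 6.93% to 19.5% of the mean in the libraries labelled aged Trem1-/-, 22.4% to 57.0% in aged wild type and 3.75% to 12.3% in young wild type. For all 6, replicate 3 was lowest and replicate 4 highest with replicate 6 between, although Ptgis had replicates 4 and 6 nearly level (344 and 339 normalized counts). Ptger2, which was not called, had this order too (6.4, 17.5 and 8.09 normalized counts in replicates 3, 4 and 6). No share of all tested genes with this order is given here. The mean log2 level of the 20 large peritoneal macrophage markers had the same order. It was 11.09 to 11.23 in the libraries labelled aged Trem1-/-, while aged wild type had 9.57 (replicate 3), 10.02 (replicate 6) and 10.44 (replicate 4) and young wild type 11.03 to 11.09. Of those markers, 18 of 20 were lower and 1 higher in aged against young wild type, and 18 were higher and 0 lower in the libraries labelled aged Trem1-/- against aged wild type; none was at 0 throughout any group. Of 12 tested markers of monocyte-derived small macrophages and dendritic cells, 7 were lower and 1 higher in aged than in young wild type. In the libraries labelled aged Trem1-/- against aged wild type, 3 of these were higher and 0 lower. Of 14 tested B cell markers, 13 were higher in aged than in young wild type and 6 were lower in the libraries labelled aged Trem1-/- than in aged wild type.

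When each library was rescaled to the mean of those 20 markers, an alternative chosen after seeing the data, most of the calls ended. In aged against young wild type, Ptgis was still lower (log2 fold change -1.03, limma adjusted p = 0.000403). The other 5 lay between -0.35 (Ptgs1, adjusted p = 0.140) and -0.18 (Ltc4s, adjusted p = 0.420), Alox15 being at -0.29 (0.0852). Ptges was called higher (1.31, adjusted p = 0.000705). In the libraries labelled aged Trem1-/- against aged wild type, Ptgis lay at 0.19, Alox5ap at 0.12, Alox15 at 0.05, Ptgs1 at -0.09, Alox5 at -0.18 and Ltc4s at -0.23, none called, and Ptges was called lower (-0.68, adjusted p = 0.0431). This scaling moved the median log2 fold change of all tested genes to 1.04 for aged against young wild type and to -1.13 for the libraries labelled aged Trem1-/- against aged wild type.

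**Figure D4:**
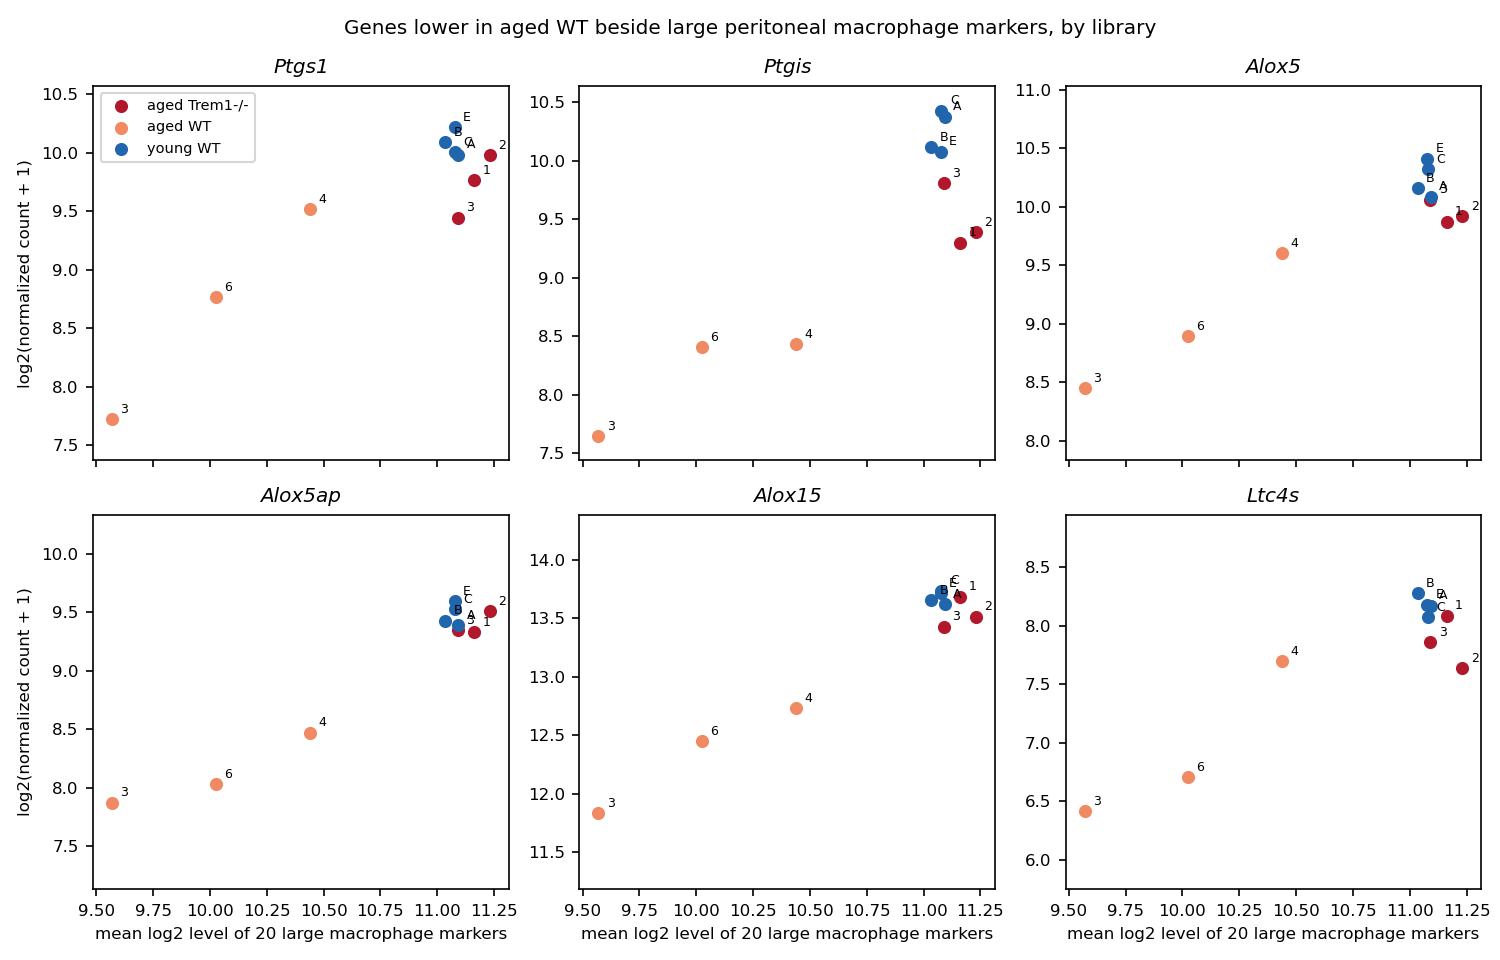
The 6 called genes in each library beside 20 large peritoneal macrophage markers, with the genes as log2(normalized count + 1) (vertical axes, each spanning the same number of log2 units) against the mean log2 level of the markers (horizontal axes). Points are libraries with their replicate names, coloured by group (aged Trem1-/-, aged wild type, young wild type); the marker mean is 11.09 to 11.23 in aged Trem1-/-, 9.57 to 10.44 in aged wild type and 11.03 to 11.09 in young wild type, and the 6 genes are lowest in aged wild-type replicate 3.

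The profiles most like those of the 3 genes with the largest change with age were found by the root-mean-square difference of mean-centred log2 values over the 10 libraries. Ptgis was nearest to Inka1 (0.21), Kif7 (0.26) and Gm13986 (0.29), where the median over all tested genes was 0.93. Ptgs1 was nearest to Mtus1 (0.14), Serpinb8 (0.15) and Eps8 (0.16), with a median of 0.77. Alox5ap was nearest to Itgb2 (0.089), Grn (0.091) and the large peritoneal macrophage marker Lyz2 (0.096), with a median of 0.67. Among the other 9 genes, Alox15 ranked 33rd nearest to Alox5ap, whereas Ptgs2 ranked 11427th, and Ptgis had no nearer neighbour among them than Alox15, which ranked 69th. These are descriptions over libraries that share their groups.

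Of 60 further genes of arachidonic acid metabolism in 6 lists, 35 were tested. In aged against young wild type 7 were higher and 12 lower, and 16 were not called, with a median log2 fold change of -0.28. Of all tested genes, 14.3% were higher and 19% lower in that comparison. In the libraries labelled aged Trem1-/- against aged wild type 8 were higher and 4 lower, with a median of 0.23. There, 11.5% of all tested genes were higher and 6.82% lower. Against young wild type 0 of 35 were called, where 0.591% of all tested genes were higher and 0.33% lower. The same shares belong beside the counts of single lists below, and no list was tested as a set. These lists held genes called in both directions in each of the first 2 comparisons. Below, a difference by age is aged against young wild type, and a difference by genotype is the libraries labelled aged Trem1-/- against aged wild type.

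Among 7 tested genes of arachidonate release and re-esterification, 2 were higher and 2 lower with age, and 2 were higher and 2 lower by genotype. Pla2g4a, the cytosolic phospholipase A2 that frees arachidonic acid, averaged 95.8 ± 9.67 normalized counts in the libraries labelled aged Trem1-/-, 51.9 ± 12.9 in aged wild type and 127 ± 32.5 in young wild type. Its log2 fold change was -1.27 for aged against young wild type (limma adjusted p = 0.00118) and 0.90 for the libraries labelled aged Trem1-/- against aged wild type (adjusted p = 0.0207); the second was lost without replicate 2 labelled aged Trem1-/- or replicate 3 of aged wild type (adjusted p up to 0.0716). Pla2g15, the lysosomal phospholipase A2, had log2 fold changes of 0.95 by genotype (limma adjusted p = 0.0113) and -0.72 by age (adjusted p = 0.0151), but its call with age was lost without aged wild-type replicate 3 or 6 (up to 0.0732). Faah, which hydrolyses the endocannabinoid anandamide, went the other way. It had 25.5, 20.8 and 32.1 normalized counts in the libraries labelled aged Trem1-/-, 352, 91.7 and 93.4 in aged wild type, and 16.6, 38.8, 21.6 and 22.1 in young wild type (log2 fold changes -2.44 by genotype and 2.57 by age, limma adjusted p = 0.00598 and 0.00125). Pla2g6, a calcium-independent phospholipase A2, was also higher with age (0.76, adjusted p = 0.00483) and lower in the libraries labelled aged Trem1-/- than in aged wild type (-0.70, adjusted p = 0.0197, lost in 3 of 10 fits leaving out a library).

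On the prostanoid side, Ptgir, the receptor for the product of Ptgis, changed as Ptgis did. It had 154, 82.5 and 98.7 normalized counts in the libraries labelled aged Trem1-/-, 38.4, 55.7 and 57.5 in aged wild type, and 147, 148, 173 and 188 in young wild type. Its log2 fold change was 1.10 ± 0.23 for the libraries labelled aged Trem1-/- against aged wild type (limma adjusted p = 0.00917) and -1.69 ± 0.22 for aged against young wild type (adjusted p = 0.000336). Tbxas1, the thromboxane synthase, was lower with age (log2 fold change -1.09, adjusted p = 0.0111, but 0.0553 at most without aged wild-type replicate 3 or 6). Tbxa2r, the thromboxane receptor, was higher with age at low levels, 24.6 ± 11.6 in aged and 5.62 ± 3.34 normalized counts in young wild type (a difference of 2.08 in log2, limma adjusted p = 0.0148, 0.0727 without aged wild-type replicate 3). For both, the difference between the libraries labelled aged Trem1-/- and aged wild type was not called (log2 fold changes 0.75 and -0.999, adjusted p = 0.102 and 0.264). Akr1b3, which can make prostaglandin F2alpha, differed with age by only -0.31 (adjusted p = 0.0335), a call kept in 4 of 10 fits leaving out a library.

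Of 5 tested genes of prostaglandin transport and breakdown, 2 were higher and 1 lower with age. Slco2a1, the prostaglandin uptake carrier, averaged 32.9 ± 17.2 normalized counts in aged and 6.03 ± 2.76 in young wild type (a difference of 2.22 in log2, limma adjusted p = 0.00461), and Abcc4, an exporter of prostaglandins, 166 ± 8.45 in aged and 97.2 ± 17.7 in young wild type (0.78, adjusted p = 0.00373). Ptgr1, which inactivates prostaglandins and leukotriene B4, was lower with age (-1.47, adjusted p = 0.00161) and higher in the libraries labelled aged Trem1-/- than in aged wild type (1.14, adjusted p = 0.0182, lost without replicate 1 labelled aged Trem1-/- or aged wild-type replicate 3).

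Of 7 tested leukotriene and lipoxygenase enzymes outside the 10 genes, 1 was higher and 3 lower with age. Cyp4f18, which in mice breaks down leukotriene B4, averaged 118 ± 50.1 normalized counts in the libraries labelled aged Trem1-/-, 316 ± 173 in aged wild type and 85.5 ± 27.0 in young wild type. Its log2 fold change was 1.805 for aged against young wild type (limma adjusted p = 0.0045) and -1.37 for the libraries labelled aged Trem1-/- against aged wild type (adjusted p = 0.0408, kept in 4 of 10 fits leaving out a library). Lta4h, which makes leukotriene B4 from the product of Alox5, changed less than Alox5 or Ltc4s. It averaged 257 ± 4.33 normalized counts in the libraries labelled aged Trem1-/-, 194 ± 30.8 in aged wild type and 267 ± 22.6 in young wild type (log2 fold changes 0.41 by genotype and -0.47 by age, limma adjusted p = 0.0494 and 0.0130). The first of those calls was kept in 1 of 10 fits leaving out a library, and the second was lost without aged wild-type replicate 3 (adjusted p = 0.0521). Mgst3, a microsomal glutathione transferase, was low throughout, at 16.2 ± 4.79, 7.74 ± 1.2 and 22.4 ± 2.32 normalized counts in the same 3 groups (log2 fold changes 0.95 by genotype and -1.42 by age, limma adjusted p = 0.0461 and 0.00266, the first kept in 2 of 10 fits). Abcc1, the exporter of leukotriene C4, was lower with age (-0.50, adjusted p = 0.0193, lost without aged wild-type replicate 4 or young wild-type replicate E).

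Of 6 tested receptors for leukotrienes, lipoxins and resolvins, 1 was higher and 3 lower with age. Cmklr1, the chemerin receptor, which also binds resolvin E1, had 1399, 1477 and 1549 normalized counts in the libraries labelled aged Trem1-/-, 434, 959 and 564 in aged wild type, and 1799.7, 1642, 1599.6 and 1934 in young wild type (log2 fold changes 1.25 by genotype and -1.49 by age, limma adjusted p = 0.00447 and 0.000473). Gpr18, a receptor reported for resolvin D2, had 38.8, 46.5 and 66.5 normalized counts in the libraries labelled aged Trem1-/-, 234, 94.9 and 128 in aged wild type, and 34.9, 53.6, 26.4 and 19.8 in young wild type. It was thus highest where Alox15 and Cmklr1 were lowest, in aged wild-type replicate 3 (log2 fold changes -1.50 by genotype and 2.13 by age, limma adjusted p = 0.0207 and 0.00116, the first kept in 7 of 10 fits leaving out a library). The 15 B cell markers, in sum, ordered the libraries as Gpr18 did in aged wild type (13970, 8705 and 12932 normalized counts) and in young wild type (3129, 3521, 2769 and 1568). In the libraries labelled aged Trem1-/- the order differed (5506, 3615 and 7542). Faah and Cyp4f18 were also highest in aged wild-type replicate 3. The part of B cells in these levels was not tested. Cysltr1, the receptor for leukotriene C4 and its products, had 136, 109.8 and 125 normalized counts in the libraries labelled aged Trem1-/-, 47.4, 123 and 45.8 in aged wild type, and 148, 132, 114 and 134 in young wild type. Replicate 4 of aged wild type was within the range of young wild type, and the call with age (-1.02, adjusted p = 0.0175) was lost without replicate 3 or 6. Ltb4r1, a leukotriene B4 receptor, was lower with age at few counts, 4.10 ± 2.07 in aged and 16.8 ± 4.12 in young wild type (-1.86, adjusted p = 0.00566).

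**Figure D5:**
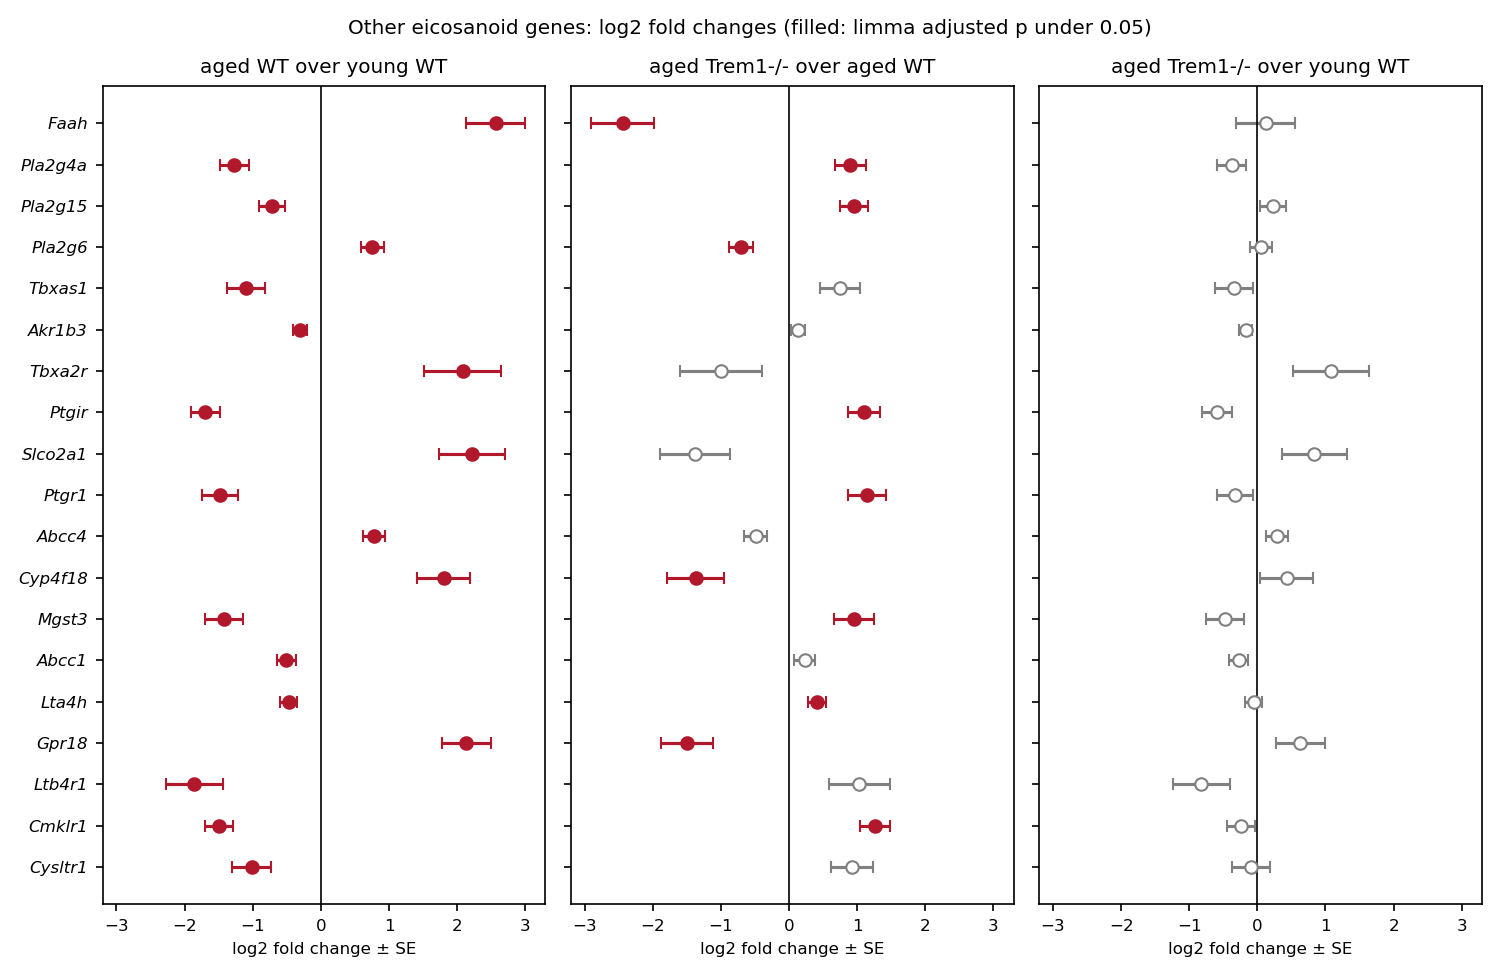
Log2 fold changes (horizontal axis) with their SE as bars of the named genes from 6 lists of arachidonic acid metabolism, for aged against young wild type (left), aged Trem1-/- against aged wild type (middle) and aged Trem1-/- against young wild type (right); filled points passed limma at an adjusted p under 0.05. Faah, Gpr18 and Cyp4f18 are higher with age and lower in the libraries labelled aged Trem1-/- than in aged wild type, opposite to Ptgir and Cmklr1.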

How the data were processed

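The authors deposited 1 table of counts normalized by DESeq2 size factors (a signal per gene with no unit, and the log2 fold changes, test statistic (a score) and p-values of their own comparison of aged with young wild type). Per the labels' protocols, RNA was made into full-length cDNA with a stranded kit. The submitters' processing notes name fastp, STAR, featureCounts 1.5.0-p3, DESeq2 1.20.0 and GRCm38; no source used here gives the annotation release or says if strand was used in counting. Dividing each library's deposited signal by its smallest positive value gave whole reads for 100% of values (tolerance 1e-06).

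Differences were tested by limma-trend, version 3.58.1 in R 4.3.3, after taking log2(normalized count + 1), which understates the change of low genes. All 10 libraries entered 1 fit of 3 groups over 11506 genes averaging 10 or more normalized counts, with Benjamini-Hochberg adjustment within each comparison at 0.05. The fit was also run on simulated data in which all groups had the same spread. That run cannot show how calls hold where aged wild type spreads more than the other groups. edgeR 4.0.16 and DESeq2 1.42.0 on the recovered reads, other pseudocounts, filters and scalings, fits of 2 groups, and leaving out each library were alternatives. Positions and exon lengths are from GENCODE M21, where 98.7% of symbols matched. The 10 genes and all lists were chosen with earlier results of these data known. Named further genes are, per list, up to 4 with the largest log2 fold change among those past the threshold by age or genotype. In the authors' deposited table the same 6 genes had an adjusted p under 0.05, with log2 fold changes from -2.05 (Ptgis) to -1.14 (Ltc4s).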

Additional observations from a re-analysis of the deposited data

Results flagged for a closer look

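Ptger4 had 396 normalized counts in young wild-type replicate C, apart from the other 3 young wild-type libraries at 224 to 250. The gap between it and its nearest neighbour was 0.851 of the whole range of the group, above Dixon's 95% critical value for 4 libraries. It was the only one of 29 genes checked in young wild type, and chance passes this limit in about 1 of 20 groups. The same library had more mesothelial and fibroblast markers (532 normalized counts in sum) than the other 3 (12.3 to 32.5), and the part of such cells in its Ptger4 level was not tested.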

How the results depend on the processing

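The 6 genes lower in aged than in young wild type kept that call under every alternative except the rescaling below, and Ptger4 made them 7 in a fit of 2 groups and without replicate 3 labelled aged Trem1-/-. Higher calls by genotype (libraries labelled aged Trem1-/- against aged wild type) numbered 4 with edgeR and 6 with DESeq2 on recovered reads, 3 in a fit of 2 groups, and 4 to 6 leaving out a library. Of all genes, edgeR called 1134 higher and 950 lower by genotype, 1821 and 1932 by age, and 52 and 28 for the libraries labelled aged Trem1-/- against young wild type. Against young wild type, 1 of the 10 genes (Ptgis) was lower with no filter, in a fit of 2 groups and with DESeq2, and 0 to 1 leaving out a library. Without that rescaling, of the values of single genes under the alternatives, 1435 kept their side of the threshold, 85 lost a call and 16 gained one; 16 of the 1435, none of them called, had the opposite sign, among them Ptgs2, Ptges and Ptger2 by age. The cause was not tested in any of these. Differences under 1.85 to 3.84 normalized counts, the worth of 3 reads, could not be resolved in a single library.

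By age, 4 further pathway genes were higher among genes with a mean of at least 50, and 7 to 13 were lower leaving out a library. By genotype, a fit of 2 groups called 726 of all genes higher and 445 lower and 4 further pathway genes higher; leaving out a library gave 762 to 1785 and 315 to 1015 of all genes, and 3 to 11 higher and 1 to 5 lower further pathway genes. For the libraries labelled aged Trem1-/- against young wild type (68 higher and 38 lower of all genes) the counts were 161 and 102 with no filter, 28 and 8 at a mean of at least 50, 154 and 145 in a fit of 2 groups, 253 and 195 with DESeq2, and 0 to 159 and 0 to 109 leaving out a library.

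Rescaling to the 20 macrophage markers, chosen after seeing the data, left 1 of the 10 genes lower and 1 higher by age, with 8959 of all genes higher and 157 lower, and 20 and 2 further pathway genes. By genotype it left 0 higher and 1 lower of the 10, 18 higher and 9447 lower of all genes, and 0 and 21 further pathway genes; against young wild type 69 of all genes were lower. Among genes called before or after it, the sign changed by age for Pla2g15 (0.34), Akr1b3 (0.75), Abcc1 (0.55), Lta4h (0.59) and Cysltr1 (0.043). By genotype the sign changed for Ptgs1 (-0.087), Ptges (-0.68), Alox5 (-0.18), Ltc4s (-0.23), Pla2g4a (-0.25), Pla2g15 (-0.20), Akr1b3 (-1.02), Ptgir (-0.048), Ptgr1 (-0.0087), Mgst3 (-0.20), Abcc1 (-0.92) and Lta4h (-0.74). A changed sign is not a call the other way. Of the 10 genes only Ptges was called by genotype after rescaling (limma adjusted p = 0.0431). Ptgs1, Alox5 and Ltc4s were not (0.727, 0.369 and 0.337).

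The labels give no pairing of libraries between groups, so no paired analysis was run.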
